A study of Mus musculus with 34 samples.

Results

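The interferon-stimulated and nucleic acid sensing genes are a list of 40 genes out of 21938 protein-coding genes. Their H3K4me3 signal was read as the mean coverage within 1000 bp on each side of the gene 5′ end (GENCODE M21, mm10). The 40 genes were chosen by earlier results on these same measured values, so their levels and the difference between genotypes are given here as a description, without a test on the members. H3K4me3 is a histone mark found at promoters in use. It was mapped by CUT&RUN, in which an antibody (anti-H3K4me3, Millipore) brings a nuclease to the mark and the released DNA is sequenced. The cells were villus cells scraped from the small intestine of C57BL/6J mice, 2 wild-type and 2 ApcMin/+. ApcMin/+ mice carry 1 mutant copy of Apc in every cell and develop intestinal tumours, and the tissue taken was normal in appearance. The labels give an age of 5 weeks for both genotypes, and the study's methods describe the mice as a week older. Villus scrapings hold enterocytes together with other epithelial cells and some cells of the mucosa below.

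Cells detect foreign nucleic acid with sensors such as RIG-I (Ddx58) and MDA5 (Ifih1), which signal through MAVS to the transcription factors IRF3 and IRF7 and so to interferon genes. Secreted interferon binds receptors on the same or on neighbouring cells, and the kinases JAK1 and TYK2 then activate STAT2, which with IRF9 binds a DNA element called the ISRE. The genes switched on in this way block viral RNA, translation and budding, and the intestinal epithelium is known to respond to interferon lambda in particular.

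The ISRE is shown first because it is the element through which interferon switches such genes on. The list was drawn up as interferon-stimulated genes, so a raised share of the ISRE is built into it. Promoter sequences of 300 bases, from 250 before to 50 after the start, were taken from RefSeq (GRCm38.p6), where 33 of the 40 genes were matched by symbol. Dhx58, Oas2, Parp14, Parp9, Rtp4, Usp18 and Zbp1 were not matched. The letters GAAANNGAAA were searched on both strands, and 14 of 33 promoters held them (42.4%), against 573 of 16522 protein-coding promoters of the same length (3.47%). The 12 stretches below hold the match in capitals, with up to 25 bases on each side. They are read 5′ to 3′ on the gene's strand, so that a match on the opposite strand appears as TTTC repeats.
Isg15 (chr4:156200850-156200921, minus strand): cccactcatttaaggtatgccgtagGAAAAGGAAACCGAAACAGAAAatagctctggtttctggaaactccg
Ifit1 (chr19:34640760-34640838, plus strand): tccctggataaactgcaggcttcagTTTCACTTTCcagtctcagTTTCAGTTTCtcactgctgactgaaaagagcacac
Ifit3 (chr19:34583348-34583441, plus strand): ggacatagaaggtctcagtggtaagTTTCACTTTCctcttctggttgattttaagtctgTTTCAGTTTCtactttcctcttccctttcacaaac
Oas1a (chr5:120907505-120907570, minus strand): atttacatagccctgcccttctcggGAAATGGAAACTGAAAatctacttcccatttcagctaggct
Oas3 (chr5:120777700-120777759, minus strand): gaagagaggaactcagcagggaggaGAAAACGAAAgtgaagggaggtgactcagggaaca
Bst2 (chr8:71537562-71537627, minus strand): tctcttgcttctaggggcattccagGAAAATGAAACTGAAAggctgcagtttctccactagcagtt
Gbp2 (chr3:142620579-142620638, plus strand): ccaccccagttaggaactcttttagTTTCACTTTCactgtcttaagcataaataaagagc
Gbp3 (chr3:142559974-142560039, plus strand): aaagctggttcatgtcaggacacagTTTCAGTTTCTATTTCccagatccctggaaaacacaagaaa
Ifih1 (chr2:62646206-62646248, minus strand): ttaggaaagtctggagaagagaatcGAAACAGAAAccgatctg
Ddx58 (chr4:40239789-40239848, minus strand): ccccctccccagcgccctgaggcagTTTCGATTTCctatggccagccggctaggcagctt
Eif2ak2 (chr17:78882523-78882579, minus strand): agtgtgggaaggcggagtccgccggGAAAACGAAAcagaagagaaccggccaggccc
Stat2 (chr10:128270251-128270310, plus strand): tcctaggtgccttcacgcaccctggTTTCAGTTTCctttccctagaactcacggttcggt

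In Isg15 the matches overlapped and started 78 bases before the start, whereas in Ifih1 the match lay 32 bases and in Eif2ak2 18 bases after it. Gbp7 and Rsad2 also held the letters. The GAS letters TTCNNNGAA, which read the same on both strands, were in 9 of 33 promoters (27.3%) and in 7.81% of all. The letters TATAAA, of the TATA box, were in 7 of 33 (21.2%) and in 12.9% of all. A match is a description of the letters and not of binding. The promoter of Irf3, a transcription factor that is present before infection, is shown whole as an example with no ISRE letters and with more CpG.
Irf3 (chr7:44997398-44997697, plus strand): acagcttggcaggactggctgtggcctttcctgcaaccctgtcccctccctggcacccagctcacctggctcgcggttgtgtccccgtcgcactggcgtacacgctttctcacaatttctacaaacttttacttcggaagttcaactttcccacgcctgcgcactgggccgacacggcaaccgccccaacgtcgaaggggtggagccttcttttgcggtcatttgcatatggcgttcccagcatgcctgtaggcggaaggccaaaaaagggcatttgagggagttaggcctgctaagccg

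The members differed widely in CpG content, given as the number of CpG observed over that expected from the bases. It was 0.0551 in Isg20, 0.0564 in Ifit3 and 0.0952 in Samd9l, but 0.912 in Irf1 and 1.03 in Irf8, with a median of 0.392 over the 33 matched members and 0.602 over all 16522 promoters. Across the 33 members CpG content and mean signal had a Spearman correlation of 0.645, and the value was 0.628 across the 16522 promoters. The members share the 4 libraries and were chosen with these values known, so this is a description. Members with the ISRE letters had a median percentile of 56.5 and 59.8 in wild-type replicates 1 and 2, and those without 76.4 and 74.5.

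**Figure D1:**
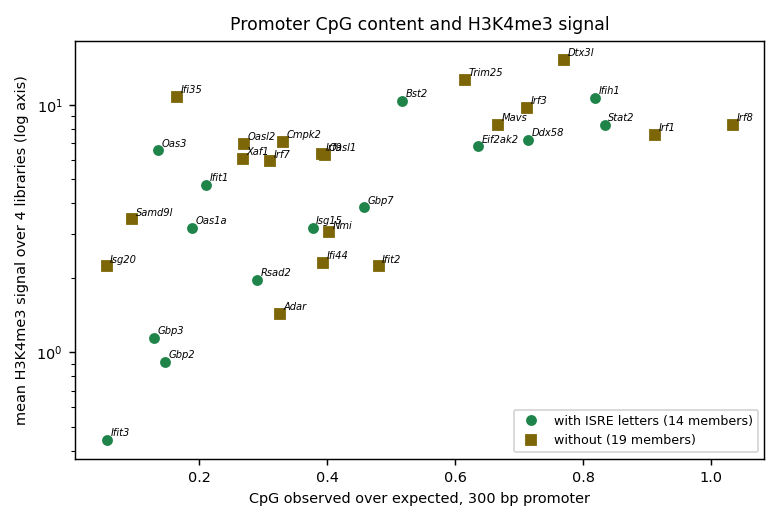
Mean H3K4me3 signal over the 4 libraries (log axis) against the CpG observed over expected of the 300 bp promoter, 1 point a gene, for the 33 members with a RefSeq promoter. Ifit3 lies lowest with a CpG value of 0.0564, and the genes with ISRE letters (14 members) extend over most of the range.

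The depth and scaling of the libraries bear on every value. The tracks rest on 1430000 tags for wild-type replicate 1, 4790000 for wild-type replicate 2, 3700000 for ApcMin/+ replicate 1 and 5470000 for ApcMin/+ replicate 2. The median member held 8.67, 23.1, 105 and 34.6 fragments in its window in this order, so that wild-type replicate 1 had the largest counting error. ApcMin/+ replicate 1 stood apart, with a mean over all promoters of 6.85 against 1.76 to 2.59 in the other 3 libraries, and it was the highest library at 98.6% of the 9931 promoters whose mean signal reached 2. Differences are therefore also given relative to the median of those promoters, which was 0.85 on the log2(signal + 1) scale, ApcMin/+ minus wild-type. Nothing in the labels says whether the mice shared a litter or a day.

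The tissue label was checked against markers. Of 10 enterocyte markers 9 reached a mean signal of 2, and of 10 markers of T cells and intraepithelial lymphocytes, 6 of B and plasma cells, 10 of macrophages and dendritic cells and 8 of fibroblasts and endothelium, 0 did. Of 6 markers of goblet, Paneth and enteroendocrine cells 0 did, and of 5 crypt markers 2 did. The summed signal of the crypt list was 7.19 and 4.27 in wild-type and 14.6 and 7.61 in ApcMin/+ mice. At 3 of the 5 both ApcMin/+ libraries were the higher, beside 25.9% of all promoters. The summed signal of the T cell list was 8.13 and 5.95 in wild-type and 19.3 and 9.58 in ApcMin/+ mice, and that of the macrophage list was 9.18 and 4.54 in wild-type and 6.44 and 6.93 in ApcMin/+ mice. In ApcMin/+ replicate 1, 1 of the 10 macrophage markers had no signal, and in wild-type replicate 1, 1 of the 10 T cell markers had none. At 7 of the 10 T cell markers both ApcMin/+ libraries were the higher, beside the same 25.9% of all promoters. This held at 4 of the 10 macrophage, 3 of the 10 enterocyte and 2 of the 8 housekeeping genes. The crypt and T cell sums, like the members, were highest in ApcMin/+ replicate 1, as were the enterocyte and housekeeping sums. In ApcMin/+ replicate 2 the crypt and T cell sums also lay above those of both wild-type libraries. The enterocyte sum was 62.6 and 39.8 in wild-type and 191 and 49.2 in ApcMin/+ mice. That of 8 housekeeping genes was 37.9 and 27.9 in wild-type and 120 and 33.2 in ApcMin/+ mice. The part of crypt cells and T cells in the results was not tested. In bulk nuclei, fewer cells with a marked promoter and less mark per cell cannot be told apart.

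In wild-type villus cells 24 of these 40 promoters had a mean signal of at least 2. The median member had a signal of 3.03 in wild-type replicate 1, 2.42 in wild-type replicate 2, 14.2 in ApcMin/+ replicate 1 and 3.16 in ApcMin/+ replicate 2. It stood at percentile 67.0, 69.3, 79.7 and 67.4 among all promoters of the same library. ApcMin/+ replicate 2 thus lay with the wild-type libraries, and ApcMin/+ replicate 1 alone was higher. The mean of the members was 1.38, 1.49, 2.11 and 1.46 times the mean over all promoters in the same order, a ratio that does not depend on the scaling of a library. It can still depend on background, since all promoters include unmarked ones. The signal away from gene starts and enriched regions was 0.268, 0.314, 0.189 and 0.285, lowest in ApcMin/+ replicate 1. Over all 4 libraries, 33 of 40 had a mean of 2 or more. Just above this value were Isg20 at 2.22 and Ifit2 at 2.22, and just below it were Oas2 at 1.99 and Rsad2 at 1.96. The 33 exceed the 24 in wild-type because some members reached 2 only through the ApcMin/+ libraries, mainly ApcMin/+ replicate 1. Zbp1, Ifit1, Dhx58, Ifi44 and Samd9l were among these, with wild-type means of 0.844, 1.61, 1.29, 0.358 and 0.870. Ifi44 and Samd9l had only 0.509 and 0.822 in ApcMin/+ replicate 2, so ApcMin/+ replicate 1 alone brought them to 2.

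**Figure D2:**
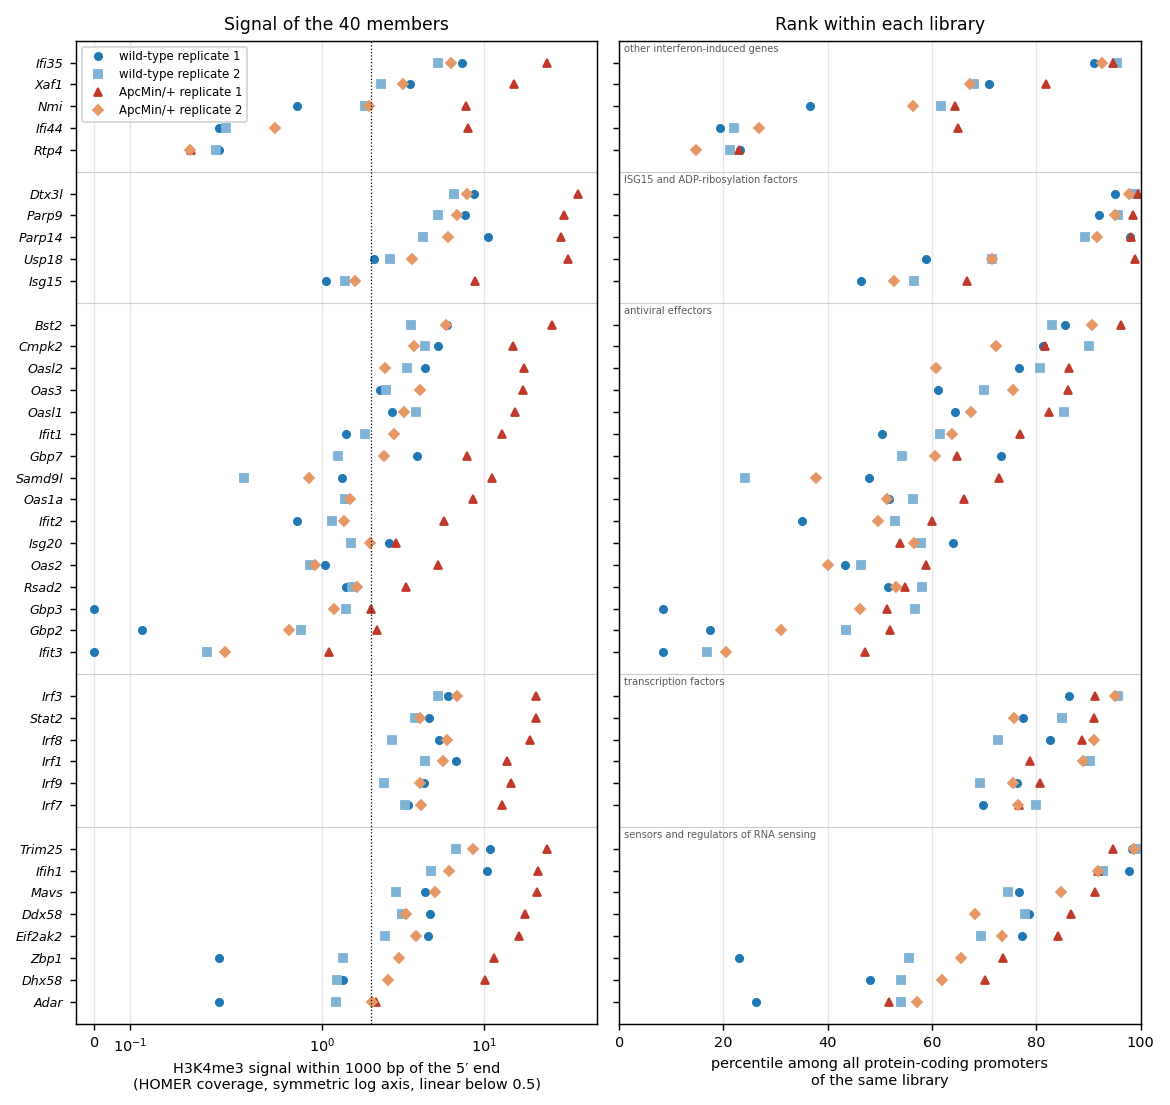
H3K4me3 signal within 1000 bp of the 5′ end (left, symmetric log axis, dotted line at a signal of 2) and percentile among all protein-coding promoters of the same library (right) for the 40 members, ordered by mean signal within each role, with 1 symbol a library. ApcMin/+ replicate 1 had the highest signal at 39 of 40 members, while its percentiles lay closer to those of the other libraries.

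The sensors and regulators of RNA sensing spanned nearly the whole range. Trim25, a ubiquitin ligase that acts on RIG-I, had a signal of 10.9 and 6.67 in wild-type and 24.4 and 8.58 in ApcMin/+ mice (wild-type 8.77 ± 2.97, ApcMin/+ 16.5 ± 11.2, SD, n = 2). It stood at percentile 94.8 or above in each library, and its groups overlapped. Ifih1, the sensor of long double-stranded RNA, had 10.4 and 4.69 in wild-type and 21.6 and 6.05 in ApcMin/+ mice, which also overlapped. Mavs, the mitochondrial adaptor below both RNA sensors, had 4.33 and 2.84 in wild-type and 21.1 and 4.98 in ApcMin/+ mice, without overlap. Ddx58 and Eif2ak2, the kinase that stops translation when double-stranded RNA is present, had mean signals of 7.22 and 6.79 with overlapping groups. At the low end, Adar, which edits double-stranded RNA, had 0.349 and 1.22 in wild-type and 2.14 and 2.01 in ApcMin/+ mice at its gene 5′ end.

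Zbp1, a sensor of left-handed nucleic acid that can start necroptosis, had the largest difference of the 40. Its signal was 0.349 and 1.34 in wild-type and 11.5 and 2.98 in ApcMin/+ mice (wild-type 0.844 ± 0.700, ApcMin/+ 7.25 ± 6.03, SD, n = 2). Both ApcMin/+ libraries lay above both wild-type libraries, and the log2 difference was 1.99, or 1.14 above that of the median promoter. The values rest on 1, 13, 85 and 33 fragments in the same order, and the exact 95% Poisson interval for the single fragment of wild-type replicate 1 runs from 0.00885 to 1.95 in signal. Such intervals cover counting error only. Without ApcMin/+ replicate 1 the difference of Zbp1 was 1.17. Dhx58, which regulates both RNA sensors, had 1.34 and 1.23 in wild-type and 10.1 and 2.56 in ApcMin/+ mice, a difference of 1.46 that was 0.64 without ApcMin/+ replicate 1.

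All 6 transcription factors reached a mean signal of 2. Irf3 had 5.99 and 5.22 in wild-type and 20.99 and 6.79 in ApcMin/+ mice, and Stat2, a subunit of the ISRE-binding complex, had 4.53 and 3.73 in wild-type and 20.9 and 4.01 in ApcMin/+ mice. The Irf3 groups did not overlap and those of Stat2 did. Irf7, which amplifies the interferon response and is itself induced by it, was the lowest of the 6 with 3.38 and 3.26 in wild-type and 12.9 and 4.09 in ApcMin/+ mice. Irf8, best known from myeloid and B cells, had 5.29 and 2.71 in wild-type and 19.2 and 5.91 in ApcMin/+ mice. It stayed at percentile 72.7 to 91.2, whereas 0 of the 16 markers of B cells, plasma cells, macrophages and dendritic cells reached a mean signal of 2. Irf1, the target of interferon gamma, lay lower in rank in ApcMin/+ replicate 1 (percentile 78.7) than in the other libraries (89.0 to 90.3).

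The 16 antiviral effectors were low, with median percentiles of 51.7 and 57.3 in wild-type and 65.5 and 54.8 in ApcMin/+ mice, and 11 of them reached a mean signal of 2. Bst2, or tetherin, which holds budding virus at the cell surface, had 5.93 and 3.55 in wild-type and 26.1 and 5.83 in ApcMin/+ mice. Cmpk2, a nucleotide kinase that neighbours Rsad2, had 5.20 and 4.30 in wild-type and 15.1 and 3.66 in ApcMin/+ mice. Both overlapped. The lowest was Ifit3, with 0 and 0.314 in wild-type and 1.10 and 0.365 in ApcMin/+ mice, or 0, 3, 8 and 4 fragments, where a count of 0 in wild-type replicate 1 allows up to 3 fragments, a signal of 1.05, by the rule of 3 counts, and 1.29 by the upper end of the exact 95% Poisson interval. Its neighbours Ifit1 and Ifit2, which bind foreign RNA ends, stood higher, with means of 4.75 and 2.22.

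Oas3 and Ifit1 had the largest differences among the effectors whose groups did not overlap. Oas3, which makes the messenger that activates RNase L, had 2.26 and 2.49 in wild-type and 17.5 and 4.003 in ApcMin/+ mice (wild-type 2.38 ± 0.158, ApcMin/+ 10.7 ± 9.51, SD, n = 2). Ifit1 had 1.40 and 1.82 in wild-type and 13.0 and 2.79 in ApcMin/+ mice. In wild-type replicate 1 the signal rests on 6 fragments for Oas3 and 4 for Ifit1. The upper ends of the exact Poisson intervals there, 4.57 and 3.58 in signal, lie above ApcMin/+ replicate 2. The lack of overlap of both genes is therefore within counting error. The log2 differences were 1.51 and 1.48, and 0.57 and 0.54 without ApcMin/+ replicate 1. Among the Oas and Oasl genes the mean signal ran from 1.99 in Oas2 and 3.18 in Oas1a to 6.95 in Oasl2. The guanylate-binding genes were low, with means of 0.917 in Gbp2, 1.15 in Gbp3 and 3.85 in Gbp7, and their groups overlapped. Isg20, an RNA exonuclease, had 2.57 and 1.504 in wild-type and 2.85 and 1.97 in ApcMin/+ mice, and once the libraries were centred on the median promoter both ApcMin/+ libraries lay below both wild-type libraries.

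By the mean of the 4 libraries, the ISG15 and ADP-ribosylation genes held the highest promoters. In both wild-type libraries and in ApcMin/+ replicate 2 the highest member was instead Trim25, with 10.9, 6.67 and 8.58. Dtx3l, a ubiquitin ligase, and Parp9, its partner, start 681 bp apart on opposite strands of chromosome 16, so that their windows overlap and they are not independent. Dtx3l had 8.72 and 6.48 in wild-type and 37.8 and 7.86 in ApcMin/+ mice, and Parp9 had 7.64 and 5.22 in wild-type and 31.4 and 6.80 in ApcMin/+ mice. Dtx3l stood at percentile 95.1 or above in every library. Parp14, on the same chromosome, had a mean of 12.7. At the other end, Isg15, the ubiquitin-like protein itself, had 1.05 and 1.38 in wild-type and 8.73 and 1.60 in ApcMin/+ mice, without overlap. Its signal in wild-type replicate 1 rests on 3 fragments, with an upper Poisson end of 3.06, so this separation is within counting error.

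Usp18, which removes ISG15 from proteins and damps interferon receptor signalling, differed widely between the ApcMin/+ libraries. It starts at position 121245906 of chromosome 6 and had 2.09 and 2.61 in wild-type and 32.9 and 3.59 in ApcMin/+ mice (wild-type 2.35 ± 0.365, ApcMin/+ 18.2 ± 20.7, SD, n = 2). Its percentile was 58.8 and 71.5 in wild-type, 99.0 in ApcMin/+ replicate 1 and 71.5 in ApcMin/+ replicate 2. These values rest on 6, 25, 243 and 39 fragments. The log2 difference of 1.90 became 0.46 without ApcMin/+ replicate 1.

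Of the other interferon-induced genes, Ifi35 and Xaf1 were high, with means of 10.8 and 6.05. Ifi35 binds Nmi, which had 0.698 and 1.84 in wild-type and 7.73 and 1.94 in ApcMin/+ mice. Ifi44 had 0.349 and 0.368 in wild-type, 7.98 in ApcMin/+ replicate 1 and 0.509 in ApcMin/+ replicate 2. It moved from percentile 19.3 and 22.1 in wild-type to 65.0 in ApcMin/+ replicate 1, but only to 26.8 in ApcMin/+ replicate 2, and its difference fell from 1.44 to 0.15 without ApcMin/+ replicate 1. Samd9l among the effectors had a like pattern, at percentile 48.0 and 24.2 in wild-type, 72.9 in ApcMin/+ replicate 1 and 37.7 in ApcMin/+ replicate 2. Rtp4 had 0.349 and 0.340 in wild-type and 0.270 and 0.269 in ApcMin/+ mice, from at most 3 fragments a library, and was the 1 member with both ApcMin/+ libraries lower.

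Over the 40 members, the median log2 difference between genotypes was 1.01, against 0.85 over the 9931 promoters tested and 0.35 over all 21938. Relative to the median of the 9931, 26 of 40 members lay above 0. At 17 of 40 members both ApcMin/+ libraries exceeded both wild-type libraries, beside 25.9% of all promoters, and at 1 they were below, beside 7.19%. After centring on the median promoter the counts were 8 above, beside 5.96% of all promoters, and 3 below, beside 21.1%. The 8 were Zbp1, Oas3, Ifit1, Dhx58, Mavs, Irf8, Bst2 and Irf9, and the 3 were Isg20, Irf1 and Trim25. Limma called 0 of 40 members and 0 of 9931 promoters at an adjusted p of 0.05 (0% called, with 131 promoters at an unadjusted p under 0.05). Limma on the centred values called 0 members and 12 promoters (0.121%). Because the members were chosen with these values known, nothing is read from these counts about the members.

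Nearly all of the difference lay in 1 library. Without ApcMin/+ replicate 1 the median difference was 0.12 over the members and 0.13 over the 9931 promoters. Without ApcMin/+ replicate 2 it was 1.98 over the members and 1.58 over the promoters, and limma then called 25 members and 65.2% of the promoters, with the lone ApcMin/+ library assumed to vary like the wild-type pair.

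**Figure D3:**
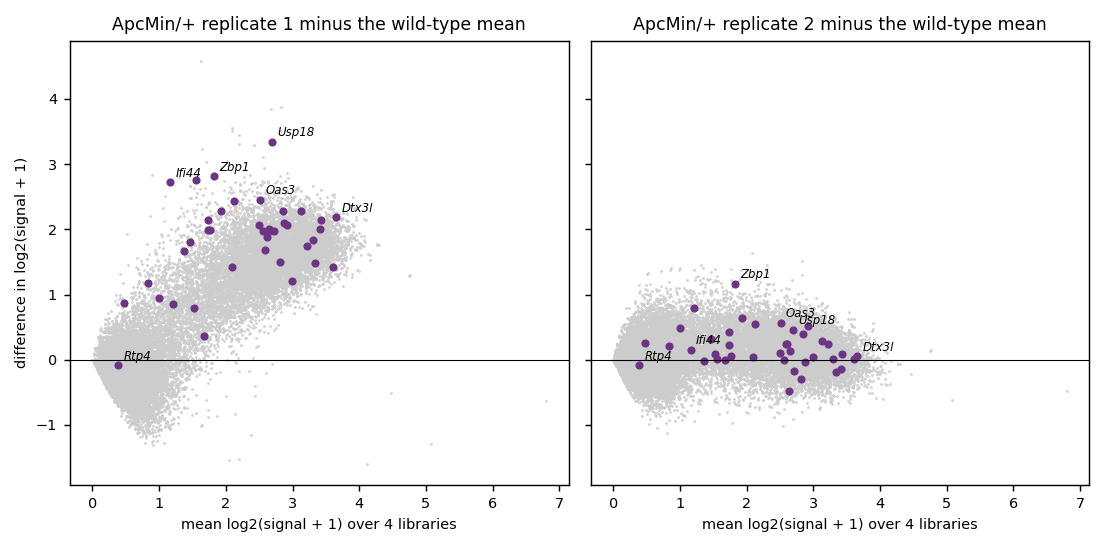
Difference in log2(signal + 1) from the wild-type mean for each ApcMin/+ library, against the mean over the 4 libraries, for all 21938 promoters (grey) and the 40 members (purple). In ApcMin/+ replicate 1 members such as Usp18 (3.34) lie far above 0 together with most marked promoters, and in ApcMin/+ replicate 2 the members scatter around 0 with Zbp1 highest at 1.17.

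On average the mark lay mostly downstream of the 5′ end. The average profile of the members peaked 120 to 179 bp downstream in each library, at 7.07, 5.41, 26.0 and 6.53 in the order wild-type replicates 1 and 2 and ApcMin/+ replicates 1 and 2. The mean over the 1000 bp downstream was 3.57, 2.66, 2.86 and 2.45 times that over the 1000 bp upstream, whereas over all promoters it was 1.70, 1.61, 1.77 and 1.60 times. The ratio was higher for the members in each of the 4 libraries. All promoters include many with a mean below 2, and the ratio is not given for marked promoters alone. By gene, the maximum lay within the first 1000 bp downstream in 33 of 40, or 82.5%, against 65.8% of the promoters with a mean of 2 or more and 48.7% of all. It lay upstream in 5 members and 1000 bp or more downstream in 2. Bst2 and Usp18 had 70.0% and 60.7% of their signal within 2000 bp on the upstream side. Enriched regions, called on the mean of the 4 tracks, reached 37 of 40 windows (92.5%), against 58.2% of all promoters, with a median length of 2200 bp and the longest, 6800 bp, at Irf1. Ifit3, Gbp3 and Rtp4 had none.

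**Figure D4:**
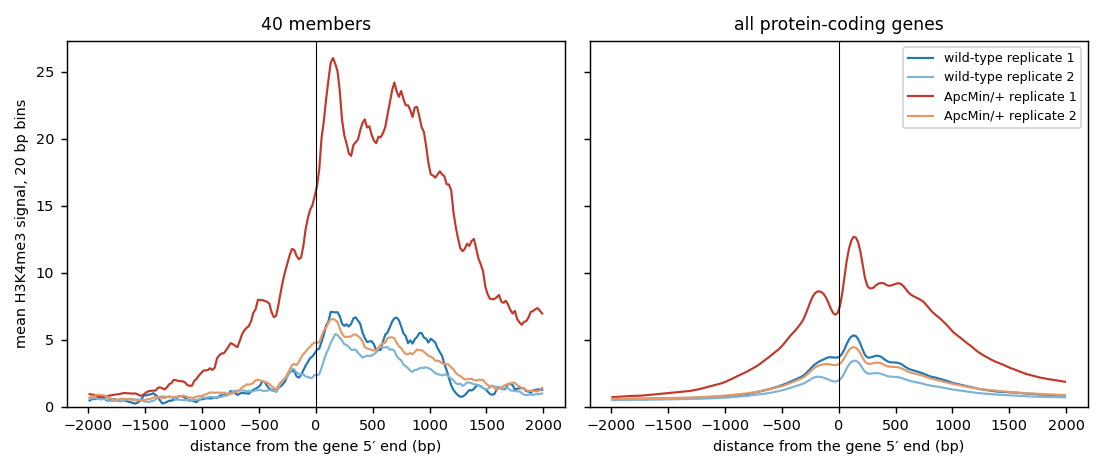
Mean H3K4me3 signal in bins of 20 bp against the distance from the gene 5′ end, for the 40 members (left) and all 21938 protein-coding genes (right), 1 line a library. The members have a broad shoulder downstream that is lower in the average of all genes, and ApcMin/+ replicate 1 peaks at 26.0 in the members and at 12.7 in all genes.

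By the mean of the 4 libraries, an annotated start other than the gene 5′ end had the most signal at 28 of 40 members. No share over all genes is given beside this count, so nothing is read from it about the members. Some of these starts lay close by, such as 17 bp away in Stat2 and 21 bp in Oas3. At 3 members, Adar, Rtp4 and Irf8, the start lay over 2000 bp away. At Adar a start 15726 bp downstream had 9.83 and 3.87 in wild-type and 30.1 and 4.69 in ApcMin/+ mice, a mean of 12.1 against 1.43 at the gene 5′ end. The groups of this start overlapped, unlike those at the 5′ end. At Rtp4 the 5′ end belongs to a transcript that begins beside Masp1, and the start 89634 bp downstream had 1.05 and 2.70 in wild-type and 15.2 and 2.38 in ApcMin/+ mice, so that the single member with a lower ApcMin/+ signal depends on the annotated start. At Irf8 a start 2281 bp downstream had a mean of 9.87 against 8.28, within the same broad region. In wild-type it was the lower, with 4.05 and 2.60 against 5.29 and 2.71 at the 5′ end. With each gene read at its strongest start, 40 of 40 members had a higher ApcMin/+ mean, as did 99.1% of the promoters with a mean of 2 or more and 70.1% of all. At 16 both ApcMin/+ libraries exceeded both wild-type libraries, beside 25.8% of all promoters.

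**Figure D5:**
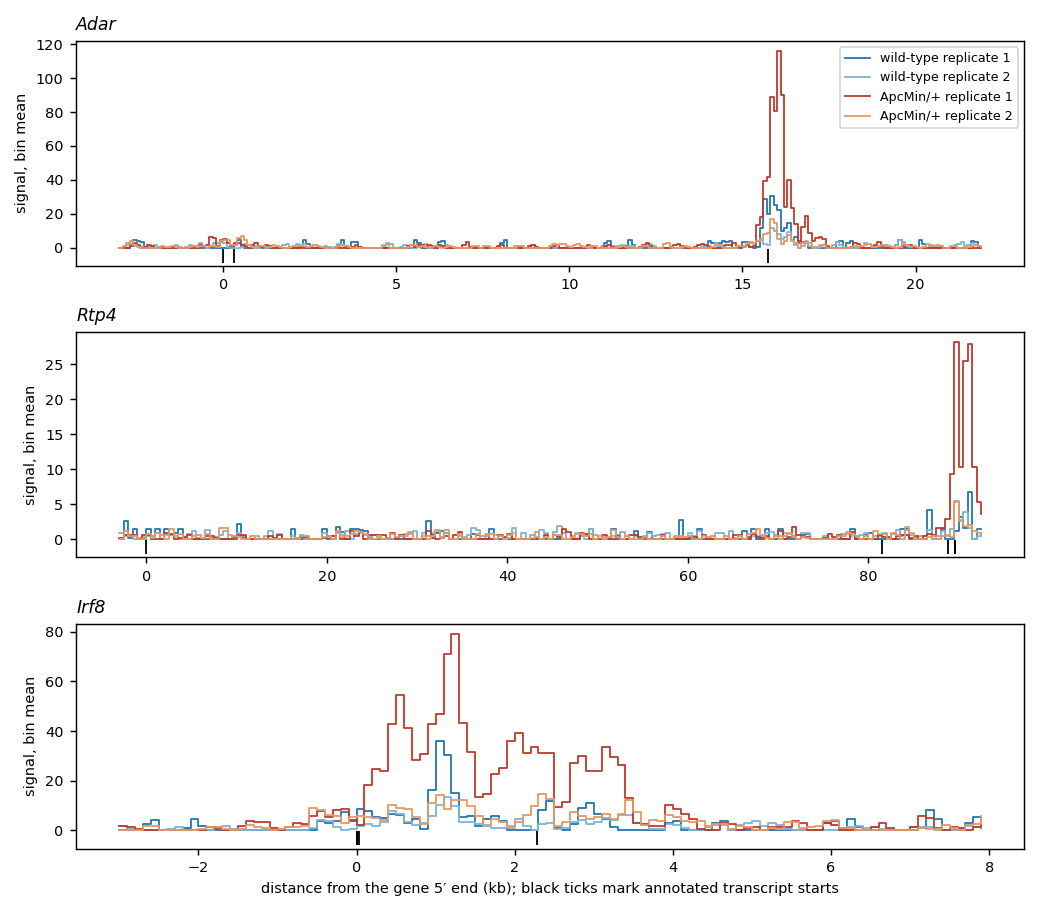
H3K4me3 signal along Adar and Irf8 (bins of 100 bp) and Rtp4 (bins of 500 bp) against the distance from the gene 5′ end in kb, 1 line a library, with annotated transcript starts as black ticks. The signal of Adar and Rtp4 rises at starts 15726 and 89634 bp downstream and is low at the 5′ end, while at Irf8 it covers both starts.

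Other windows also overlapped that of a neighbouring gene, whose start lay within 2000 bp. The neighbour was Bcl2l12 for Irf3, Apof for Stat2, Ifit1bl2 for Ifit1 and Masp1 for Rtp4, and Ifit2, Oas3, Oasl1 and Eif2ak2 also had 1. The tracks carry no strand, so the signal of such pairs cannot be told apart where their windows overlap.

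The rest of the pathway was read from lists. None of the 9 interferon ligand genes, Ifnb1, Ifng and the lambda genes among them, had a mean signal of 2, and the list averaged 0.426 and 0.382 in wild-type and 0.308 and 0.404 in ApcMin/+ mice. The highest were Ifna4 at 0.608 and Ifnl2 at 0.528, and Ifna4 also had the largest difference, -0.59. By contrast, 11 of 11 receptor and kinase genes reached 2, led by Ifngr1 at 12.9 and Jak2 at 11.5, which also had the largest difference of that list, 1.21. Of 13 sensing genes outside the members 9 did, led by Myd88 at 9.72 and Tbk1 at 8.68, which had the largest difference, 1.43, while Aim2 and Tlr7 were at 0.471 and 0.261. Of 30 other interferon-induced genes 17 did, led by Irgm1 and Znfx1.

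Irgm1, an autophagy GTPase, had 3.49 and 1.65 in wild-type, 38.3 in ApcMin/+ replicate 1 and 4.38 in ApcMin/+ replicate 2, the largest difference of that list at 2.07. The median percentile of the 30 genes was 54.1 and 53.2 in wild-type, 63.3 in ApcMin/+ replicate 1 and 55.0 in ApcMin/+ replicate 2, whereas that of 8 housekeeping genes was 79.8, 78.9, 77.4 and 79.0. The median differences of the 4 lists relative to the median promoter were -0.83 for ligands, 0.036 for receptors and kinases, -0.067 for sensing genes and -0.015 for other interferon-induced genes. Before the 0.85 of the median promoter was taken off, the ligand difference was 0.016, at promoters that averaged 0.308 to 0.426 a library. A list of 8 genes silent in intestine had -1.03 in the same way. Such a value at nearly unmarked promoters does not show a loss of the mark. Of these lists limma tested only the genes with a mean of 2 or more, none of them a ligand, and called 0.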

How the data were processed

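H3K4me3 CUT&RUN tracks of 2 wild-type and 2 ApcMin/+ mice were used, grouped by the genotype in the labels. Per the labels and the study's methods, the authors aligned read pairs to mm10 with Bowtie2, removed duplicates with Picard and reads of low mapping quality, kept fragments of 150 to 500 bp and wrote coverage with HOMER. The deposited values are signal, scaled by the authors to 10000000 tags a library, without a control track subtracted. A count model was not applied to such values. Fragments in a window were obtained from the summed signal over the track's signal per tag.

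The members, roles, lists and tests were chosen with earlier results of these data known. Signal was averaged over 1000 bp on each side of the 5′ end of 21938 genes. Promoters with a mean of at least 2 were fitted together by limma 3.58.1 (R 4.3.3) with a trend on log2(signal + 1), Benjamini-Hochberg adjusted at 0.05. The fit was also run on simulated data that held counting error only. These had no library that stood apart and no variation between mice, so they say nothing about how the fit handles either. Because of the added 1, differences of low promoters are understated. With 2 libraries against 2 an exact permutation test cannot go below p = 0.333, so none was run. P-values measure the spread between these 4 libraries only. Enriched regions were stretches of at least 300 bp at 5 times the genome mean in bins of 100 bp, with gaps of 500 bp joined. Values in each library are given for the 2 highest and the lowest members of each role, the 6 largest differences among groups without overlap, members at the filter of 2, and members with shared windows or a stronger start over 2000 bp away. Values of Samd9l, Isg20, Nmi and other members beyond this rule were added after they had been seen. Mb21d1, Mx2 and Oas1b of the lists were not matched in the annotation. Python 3.11.15 was used for the other steps. Alternatives were the pseudocount, filter, window, start, scaling, a replicate block and leaving out each library.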

Additional observations from a re-analysis of the deposited data

How the results depend on the processing

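With 2 libraries a genotype, 1 of which stands apart, the scaling and the choice of libraries set the results. The count of promoters called by limma, 0 as reported, became 12 with centring, 2 with quantile normalization and 1 with a replicate block. With 1 library left out it ranged from 0 to 6477, the latter without ApcMin/+ replicate 2, and from 0 to 30 with centring as well (2 when wild-type replicate 1 was the one left out, and 18 when it was replicate 2). Members called ranged from 0 to 25 when a library was left out, and from 0 to 1 (Usp18) with centring, where an arm has 1 library and the other alone gives the spread, and were 0 under the other alternatives. The count of members with both ApcMin/+ libraries above both wild-type libraries, 17 as reported, became 8 with centring (5.96% of all promoters) and 7 with quantile normalization (7.03%), and ranged from 17 to 39 with a library left out, beside 36.7% to 58.3% of all promoters, and from 9 to 23 with centring as well, beside 13.2% to 21.9%. It was 34 without wild-type replicate 1, beside 56.0%. The median log2 difference of the members ranged from 0.12 to 1.98 with a library left out and from -0.0071 to 0.40 with centring as well (0.052 without wild-type replicate 1), and was 0.65 to 1.29 under the pseudocounts, filters, windows, starts and scaling to background, but 0.15 with centring and 0.086 with quantile normalization. A drop on centring follows from its construction, since it removes the median difference.

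Replicate numbers are shared by the genotypes, but nothing says that they pair the mice. Over 9931 promoters the replicate differences of the genotypes correlated at 0.196, and with the replicate block 0 members were called. Depth limits Ifit3, Gbp2, Gbp3, Rtp4, Adar, Ifi44 and Zbp1 in wild-type replicate 1, where each rests on 0 or 1 fragment. It also limits groups without overlap at other members, such as Oas3, Ifit1, Dhx58 and Isg15. These rest on 6, 4, 4 and 3 fragments in that library, with upper Poisson ends above the signal of ApcMin/+ replicate 2.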
